A study of Mus musculus with 9 samples.

Results

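The Slc30a family, also called ZnT, comprises the zinc transporters that move zinc out of the cytosol, either across the plasma membrane or into organelles and vesicles. The members described here are the rows of the count table with the symbols Slc30a1 to Slc30a10, 10 genes of 25611. Their levels were followed in islet RNA from 4 control mice and 3 mice labelled knockout, and sites bound by the transcription factor Glis3 were read from 1 list of 21254 peaks. The controls (Glis3fl/fl, 4 weeks old) carried the conditional Glis3 allele alone. The mice labelled knockout (Pdx1-Cre;Glis3fl/fl, 4 weeks old) carried the same allele with Cre recombinase under the Pdx1 promoter. That promoter is active in the progenitors of pancreatic endocrine, acinar and duct cells. Mice with the driver alone were not among the groups, so the driver and the deletion cannot be told apart. The peaks came from hand-picked islets of 8-week-old mice with the genotype Glis3-eGFP, precipitated with an antibody against GFP, with no replicate.

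In the islet, zinc is concentrated in the insulin granule, where insulin is stored as crystals around zinc ions. Slc30a8 (ZnT8) is the transporter of the granule membrane in beta cells and is also made by alpha cells. Slc30a1 is the exporter of the plasma membrane, Slc30a5, Slc30a6 and Slc30a7 supply zinc to the early secretory pathway, Slc30a4 serves endosomal and secretory vesicles, and Slc30a9 works in mitochondria. Slc30a2 is known from acinar and mammary cells, Slc30a3 from synaptic vesicles of neurons, and Slc30a10 as a manganese exporter. The Slc39a (ZIP) family moves zinc the other way, into the cytosol. Metallothioneins bind cytosolic zinc, and the zinc sensor Mtf1 activates Slc30a1, Mt1 and Mt2 through metal response elements.

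Promoter sequences show where Glis3 peaks sat at some of these genes. They were taken from RefSeq (GRCm38.p6, the build called mm10), which gave 250 bases before to 50 bases after the start for 9 of the 10 members, all but Slc30a8. Peaks overlapped the windows of Slc30a5, Slc30a6 and Slc30a9, and the windows of the other members held no base of a peak. In the first 3 sequences, each 5′ to 3′ on the strand of the gene, capitals mark the bases inside a Glis3 peak. The peak lay wholly within the window of Slc30a6 (chr17:74395358-74395657, plus strand) and of Slc30a9 (chr5:67306705-67307004, plus strand), and covered the last 47 bases of that of Slc30a5 (chr13:100833378-100833677, minus strand).
Slc30a6: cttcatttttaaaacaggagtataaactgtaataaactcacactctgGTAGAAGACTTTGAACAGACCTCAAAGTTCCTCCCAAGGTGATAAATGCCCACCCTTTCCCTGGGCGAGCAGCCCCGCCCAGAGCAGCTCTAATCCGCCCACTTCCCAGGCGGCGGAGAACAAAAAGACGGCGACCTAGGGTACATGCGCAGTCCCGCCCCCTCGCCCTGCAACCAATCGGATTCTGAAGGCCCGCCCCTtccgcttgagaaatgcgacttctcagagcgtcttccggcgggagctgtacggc
Slc30a9: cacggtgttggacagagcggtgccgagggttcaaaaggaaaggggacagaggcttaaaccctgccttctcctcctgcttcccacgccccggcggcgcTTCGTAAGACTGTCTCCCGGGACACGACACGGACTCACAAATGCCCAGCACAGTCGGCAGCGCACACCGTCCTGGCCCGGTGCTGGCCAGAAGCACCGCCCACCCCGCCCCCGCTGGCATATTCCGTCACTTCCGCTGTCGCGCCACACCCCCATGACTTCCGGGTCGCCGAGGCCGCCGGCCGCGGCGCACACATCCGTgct
Slc30a5: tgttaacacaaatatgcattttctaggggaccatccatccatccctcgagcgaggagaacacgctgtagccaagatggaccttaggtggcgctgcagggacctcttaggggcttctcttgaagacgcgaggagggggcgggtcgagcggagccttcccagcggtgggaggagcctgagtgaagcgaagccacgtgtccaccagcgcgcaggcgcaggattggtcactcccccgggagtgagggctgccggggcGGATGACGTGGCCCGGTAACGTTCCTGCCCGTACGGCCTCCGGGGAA

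The next pair of promoters is shown for the metal response element, since Slc30a1 and Mt1 are textbook targets of Mtf1. Capitals mark matches to TGCACNC or TGCGCNC, the element's core, on either strand. Slc30a1 (chr1:191906531-191906830, plus strand) held 2 matches, both on the opposite strand, with first bases 43 bases before and 30 bases after the start. Mt1 (chr8:94178839-94179138, plus strand) held 3 matches, all on its own strand, and a Glis3 peak covered the last 152 bases of this window.
Slc30a1: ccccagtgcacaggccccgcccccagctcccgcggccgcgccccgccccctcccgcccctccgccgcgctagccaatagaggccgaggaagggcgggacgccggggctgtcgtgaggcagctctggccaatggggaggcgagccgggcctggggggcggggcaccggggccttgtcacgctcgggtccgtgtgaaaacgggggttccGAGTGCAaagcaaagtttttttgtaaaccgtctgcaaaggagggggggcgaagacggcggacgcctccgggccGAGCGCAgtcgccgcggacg
Mt1: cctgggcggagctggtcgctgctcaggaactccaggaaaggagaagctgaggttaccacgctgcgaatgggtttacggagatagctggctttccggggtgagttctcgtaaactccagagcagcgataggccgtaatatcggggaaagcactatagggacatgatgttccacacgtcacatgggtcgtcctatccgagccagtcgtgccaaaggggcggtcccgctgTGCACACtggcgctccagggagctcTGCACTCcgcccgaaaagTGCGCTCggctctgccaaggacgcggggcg

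At least 1 match to this core was found in 25.7% of all 32851 promoter windows of the same length, and at least 3 matches in 1.97%. Among the 9 members with a window, 6 held a match: 3 in Slc30a4, 3 in Slc30a10, of which a pair overlapped on opposite strands, 2 in Slc30a1, 2 in Slc30a2, and 1 each in Slc30a3 and Slc30a5. The G-rich core of the site described for Glis3, searched as TGGGGGG on both strands, was in 8.47% of all windows and in those of 2 members, Slc30a1 and the inner start of Slc30a3. Neither of these windows overlapped a Glis3 peak, and the windows that did (Slc30a5, Slc30a6 and Slc30a9) had no match to this core. The longer form TGGGGGGT, which contains the shorter one, was in 1.53% of all windows and in none of the members. These matches describe letters in the windows and are not measured sites.

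Total counts ran from 12099365 to 48054551 per library, the lowest in labelled knockout 1 and the highest in control 2. The targeted gene, Glis3, rose from 37.8 ± 6.95 CPM in controls (SD, n = 4) to 54.2 ± 3.11 CPM in the labelled knockouts (SD, n = 3; log2 0.52, SE 0.14, edgeR adjusted p = 0.0257). The counts give 1 value for the whole gene, so they do not check the deletion, and the label is kept as a label. CPM stands for counts per 1e6 counts of a library after scaling by TMM factors. The islet markers Ins1, Ins2, Gcg, Sst and Ppy were present in every library, but Ppy, the hormone gene of gamma cells, fell from 6330 ± 2197 CPM (SD, n = 4) to 478.3 ± 172.3 CPM (SD, n = 3; log2 −3.73, edgeR adjusted p = 0.000844). The summed level of 14 acinar markers ran from 750 to 4693 CPM in controls and from 2348 to 13010 CPM in the libraries labelled knockout, the highest in labelled knockout 2. The summed level of 6 duct markers ran from 253 to 308 CPM in controls and from 770 to 954 CPM in the libraries labelled knockout, with Spp1 the single called member. The summed level of 4 macrophage markers ran from 17.9 to 27.0 CPM in controls and from 28.6 to 31.4 CPM in the libraries labelled knockout, with 0 of the 4 called. The part of these marker differences in the results was not tested. Amy2a5 of the acinar list and the red cell genes Hba-a1 and Hbb-bs were at 0 in all libraries.

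Of the 10 members, 7 had enough counts to be tested, and 1 of these fell, 0 rose and 6 did not pass the test. The one that fell was Slc30a8. A gene was called at a Benjamini-Hochberg adjusted p under 0.05 in edgeR's quasi-likelihood test over 14529 genes, of which 14.0% were called, 5.25% lower and 8.73% higher. At an unadjusted p under 0.05, 2 members were lower (Slc30a1 and Slc30a8) and 0 higher, and DESeq2 and limma-voom each called 1 lower and 0 higher. Over all 14529 genes DESeq2 called 1090 lower and 1570 higher, and limma-voom called 770 lower and 1318 higher. For unadjusted counts, here and below, no share over all tested genes is at hand, so they are not read as results about a list. The median log2 fold change of the 7 tested members, labelled knockout over control, was 0.030, against 0.0065 over all tested genes. Levels are compared here within a gene and not between genes, because exon lengths were not used here.

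Slc30a8 (chr15:52295553-52335733, plus strand), the granule transporter, was 1.94-fold lower in the libraries labelled knockout. In controls 1 to 4 its levels were 609.2, 571.1, 558.1 and 559.9 CPM, and in labelled knockouts 1 to 3 they were 297.7, 235.9 and 356.4 CPM. All 3 libraries labelled knockout lay below all 4 controls, and the controls lay close together while the labelled knockouts were spread, with labelled knockout 2 lowest. The means were 574.6 ± 23.8 CPM (SD, n = 4) and 296.7 ± 60.3 CPM (SD, n = 3), a log2 fold change of −0.95 (SE 0.14, 95% interval −1.27 to −0.64, edgeR adjusted p = 0.000546). In these bulk libraries fewer cells that make a transcript and less of it per cell cannot be told apart. Of 7 beta cell markers 4 fell (Ins1, Ins2, Slc2a2 and Mafa), Iapp rose and 2 did not pass. Among alpha cell markers Irx1 and Irx2 fell, Ttr rose, and Gcg (log2 −0.32) did not pass. The summed beta marker level ran from 329100 to 550200 CPM in controls and from 189000 to 299200 CPM in the libraries labelled knockout, and its part in the fall of Slc30a8 was not tested.

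**Figure D1:**
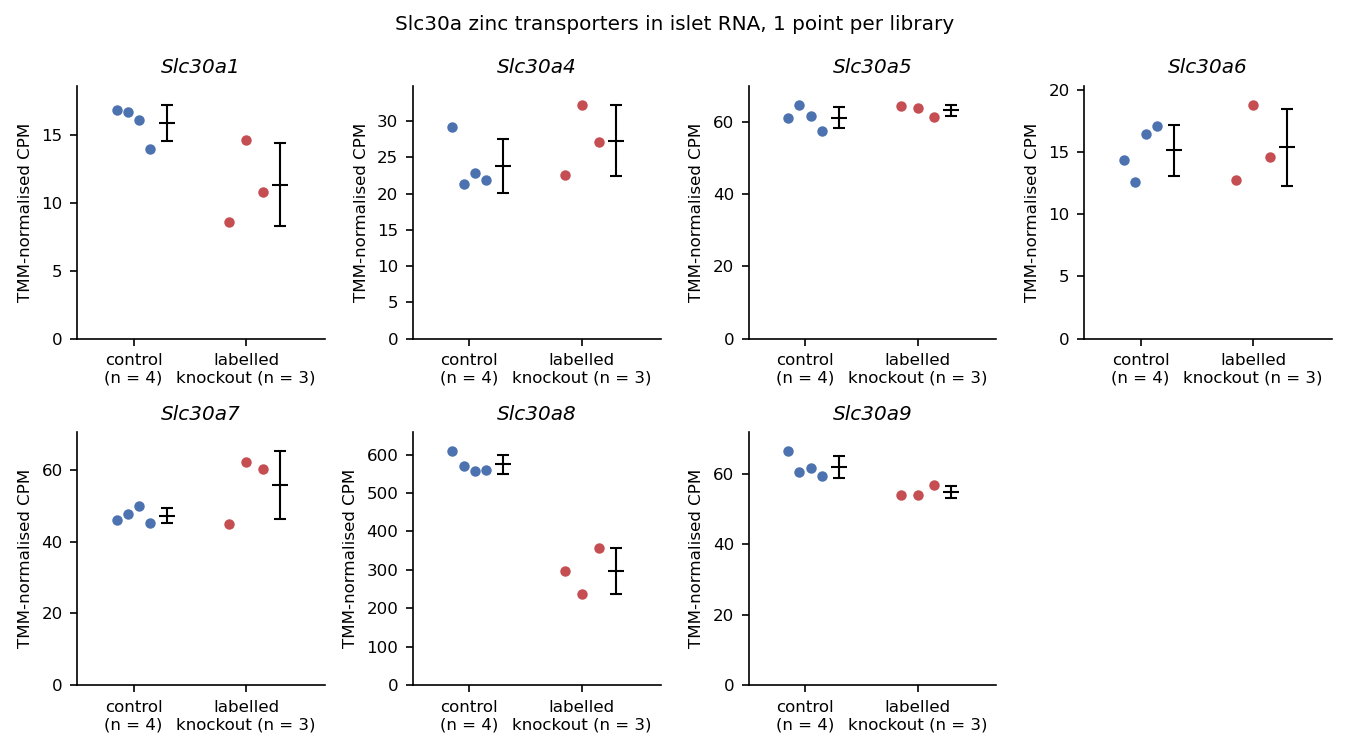
TMM-normalised CPM (y axis, from 0) of the 7 tested Slc30a members in the 4 control libraries (blue, 1 to 4 from left to right) and the 3 libraries labelled knockout (red, 1 to 3), with mean and SD as black bars. Slc30a8 shows separate groups, from 558.1 to 609.2 CPM against 235.9 to 356.4 CPM, and Slc30a5 stays within 57.5 to 64.7 CPM in all 7 libraries.

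Slc30a8 was also set against Ins2, the main insulin gene of the granule it serves. The controls held 2.53, 2.74, 1.91 and 1.60 Slc30a8 counts per 1000 Ins2 counts, and labelled knockouts 1 to 3 held 4.63, 2.78 and 2.93. The groups did not overlap, but labelled knockout 2 stood close above control 2 and labelled knockout 1 stood far above the rest. The means were 2.20 ± 0.53 (SD, n = 4) and 3.44 ± 1.03 (SD, n = 3), a difference that did not pass an exact 2-sided permutation test (p = 0.0571, where 0.0286 is the smallest p possible). Ins2 itself fell by 1.59 on the log2 scale (SE 0.23, edgeR adjusted p = 4.0e-04) and Ins1 by 1.30 (SE 0.28, edgeR adjusted p = 0.00751), and reads may be split between these close copies.

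As a share of all counts that fell on the 10 members, Slc30a8 made up 72.3%, 71.9%, 70.9% and 72.3% in the controls. In the libraries labelled knockout it made up 59.0%, 48.9% and 60.7%. This share also depends on transcript length, which is the same in both groups if the isoforms are. The widest exact (Clopper-Pearson) 95% binomial interval, which covers counting error only, ran from 57.8% to 60.2%, in labelled knockout 1. The share fell from 71.8 ± 0.66% (SD, n = 4) to 56.2 ± 6.36% (SD, n = 3), with p = 0.0286 in the exact permutation test, the smallest it can give. The other 9 members summed to 225.5 ± 8.19 CPM in controls (SD, n = 4) and 228.2 ± 19.9 CPM in the libraries labelled knockout (SD, n = 3), within the spread of the libraries. The share therefore restates the fall of Slc30a8 already called, and its p is no separate support for that fall.

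**Figure D2:**
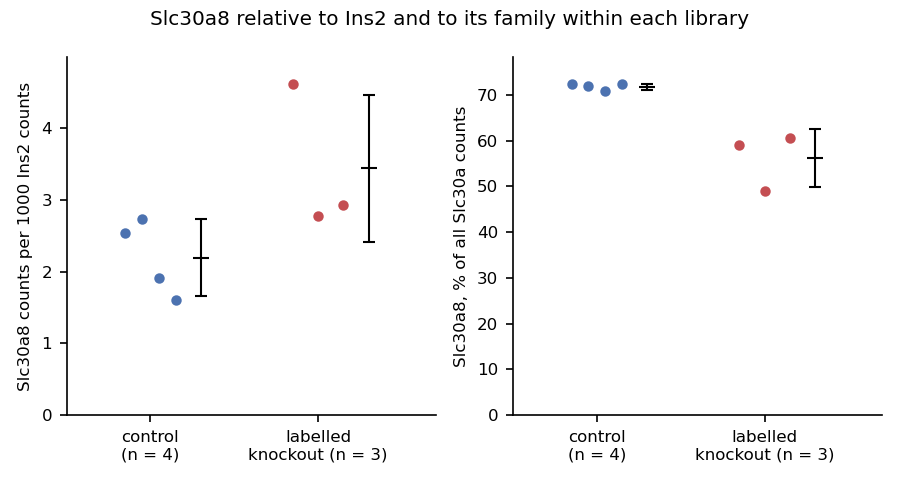
Slc30a8 counts per 1000 Ins2 counts (left) and Slc30a8 as a percentage of all Slc30a counts (right) in each control (blue) and labelled knockout (red) library, with mean and SD as black bars, both axes from 0. The ratio to Ins2 is higher in all 3 libraries labelled knockout (2.78 to 4.63 against 1.60 to 2.74), and the share within the family is lower (48.9% to 60.7% against 70.9% to 72.3%).

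Genes with the pattern most like Slc30a8 were sought among 8776 tested genes with at least 10 CPM on average, by Pearson's r of log2(CPM + 0.5) over the 7 libraries. The 5 nearest were Sacm1l, a phosphoinositide phosphatase gene (r = 0.995), Zdhhc2, a palmitoyltransferase gene (0.995), Selenot, a selenoprotein gene of the endoplasmic reticulum (0.993), Bpnt1, a nucleotidase gene (0.992), and Olfm4, which encodes a secreted glycoprotein (0.991). All 5 were lower in every library labelled knockout than in any control. Their log2 fold changes were −0.59, −1.02, −0.74, −0.84 and −2.09 in that order. The 7 points share the group difference, so these values describe likeness and carry no test.

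Slc30a1 (chr1:191906781-191913247, plus strand), the exporter of the plasma membrane, stood at 16.8, 16.7, 16.1 and 13.9 CPM in controls and at 8.61, 14.6 and 10.8 CPM in labelled knockouts 1 to 3. Labelled knockouts 1 and 3 lay below all controls, while labelled knockout 2 lay between control 4 and the rest, so the groups overlapped. The log2 fold change was −0.48 (SE 0.20, 95% interval −0.90 to −0.058) and did not pass over all genes (edgeR adjusted p = 0.125). Without labelled knockout 2 it was −0.71 and passed (edgeR adjusted p = 0.0312), which gave 2 members lower. Over the 16 alternatives its adjusted p ran from 0.0312 to 0.452.

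The transporters of the early secretory pathway showed no called change. Slc30a5 (chr13:100802648-100833427, minus strand), which works as a heterodimer with Slc30a6, had the steadiest level, 61.2, 64.7, 61.8 and 57.5 CPM in controls and 64.4, 63.9 and 61.4 CPM in labelled knockouts. Its 95% interval of the log2 fold change, −0.18 to 0.27, leaves room for small changes in either direction. Slc30a6 (chr17:74395608-74424229, plus strand) stood at 14.3, 12.6, 16.4 and 17.1 CPM in controls and at 12.7, 18.8 and 14.6 CPM in labelled knockouts, with overlapping groups (log2 0.030, 95% interval −0.37 to 0.43, edgeR adjusted p = 0.94). The sign of both small differences turned when 1 library was left out (Slc30a5 −0.00029 without control 4; Slc30a6 −0.050 without control 2 and −0.14 without labelled knockout 2). The ratio of Slc30a5 to Slc30a6 counts within a library was 4.13 ± 0.77 in controls (SD, n = 4) and 4.23 ± 0.83 in labelled knockouts (SD, n = 3), and did not differ beyond that spread (exact permutation p = 0.971).

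Slc30a7 (chr3:115938973-116007406, minus strand), which forms homodimers in the Golgi, stood at 46.1, 47.9, 50.2 and 45.4 CPM in controls and at 44.9, 62.2 and 60.4 CPM in labelled knockouts 1 to 3. Labelled knockouts 2 and 3 lay above all controls, and labelled knockout 1 lay below all of them. The log2 fold change was 0.24 (SE 0.13, 95% interval −0.036 to 0.52, edgeR adjusted p = 0.246). Labelled knockout 1 also had the lowest ratio of Slc30a7 to Slc30a5 counts of all libraries, 0.698, against 0.974 and 0.983 in labelled knockouts 2 and 3 and 0.741 to 0.812 in controls.

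Slc30a4 (chr2:122681233-122702663, minus strand), a transporter of endosomes and secretory vesicles, stood at 29.2, 21.3, 22.9 and 21.8 CPM in controls and at 22.5, 32.3 and 27.1 CPM in labelled knockouts. Control 1 lay among the labelled knockouts, and the difference did not pass (log2 0.20, SE 0.16, 95% interval −0.15 to 0.55, edgeR adjusted p = 0.474). Slc30a9 (chr5:67306955-67356142, plus strand), the mitochondrial member, stood at 66.4, 60.4, 61.7 and 59.3 CPM in controls and at 53.8, 53.8 and 56.8 CPM in labelled knockouts. Every library labelled knockout lay below every control, yet the distance was small (log2 −0.18, SE 0.11, 95% interval −0.40 to 0.051) and did not pass (edgeR adjusted p = 0.303). Of all tested genes, 12.6% were lower in every library labelled knockout than in any control, and 14.0% were higher in every one. Among the 7 tested members 2 were, Slc30a8 and Slc30a9.

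The 3 remaining members were nearly absent. Slc30a2 (chr4:134343046-134354484, plus strand) had 0, 3, 0 and 0 counts in controls and 0, 0 and 1 in labelled knockouts, while the acinar marker sum reached 4693 and 13010 CPM in single libraries of these groups. Slc30a3 (chr5:31086106-31108244, minus strand) had 1, 0, 0 and 1 counts in controls and 0, 17 and 1 in labelled knockouts, so that its 0.734 CPM in labelled knockout 2 made up nearly all of the reads of that group. Slc30a10 (chr1:185454848-185468761, plus strand) had 6 counts in control 3 and 0 in the other libraries. A count of 0 allows up to 3 counts, or 0.0584 to 0.223 CPM depending on the library. At this depth no difference between the groups was detectable for these 3 genes, and no fold change is given.

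Glis3 peaks lay within 50 kb of 9 of the 10 members, counting a peak whose midpoint was inside the gene span or within 50 kb of either end. The exception was Slc30a10, one of the nearly absent members. Such a peak was found for 72.5% of all genes of the table and for 93.7% of tested genes, and the 7 tested members all had one. All 7 also had a peak within 1 kb of the 5′ end, as did 71.2% of tested genes, and 43.1% of all genes. Of the 3 nearly absent members 0 did, as did few of the genes with too few counts to be tested (6.28%). The closest peak midpoints were 54 bp from the 5′ end of Slc30a9, 87 bp from that of Slc30a8, 103 bp for Slc30a5, 104 bp for Slc30a6, 266 bp for Slc30a4, 376 bp for Slc30a7 and 444 bp for Slc30a1. Only gene spans were used, so exons and introns are not told apart. With 1 called member among the 7, a peak at the start did not separate the member that fell from the 6 that did not pass.

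At Slc30a8 the peaks were not limited to the start. Its 3 peaks within 50 kb were at chr15:52278437-52278636, 17017 bp before the 5′ end, at chr15:52295367-52295566, across the 5′ end, and at chr15:52316125-52316324, 20671 bp into the gene. For all 3, and for 2 more peaks 78015 and 79432 bp upstream, the 5′ end of Slc30a8 was the nearest of any gene. Slc30a3, Slc30a5 and Slc30a7 also had 3 peaks each within 50 kb, but their own 5′ end was the nearest for only 1 of them. Each of the other members had at most 1 peak nearest to its own 5′ end within 50 kb, and Slc30a5 had 2 more of them 52667 and 59252 bp upstream. Of the other zinc handling genes with a called change, Slc39a11 and Mt1 also had 3 such peaks within 50 kb. At least 3 peaks of this kind were found for 5.64% of all genes and 9.10% of tested genes. This count depends on how far away the neighbouring genes start, which was not taken into account. It was chosen after the peak positions were seen.

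The remaining peaks near members mostly lay at the starts of other genes. The start of Slc30a1 lay between peaks at chr1:191906161-191906360 and chr1:191907126-191907325. The second peak lay inside the span of Slc30a1 and was nearer to the 5′ end of the overlapping gene 1700034H15Rik on the opposite strand. Slc30a7 and Extl2 start close to each other in opposite directions, with peaks on both sides at chr3:116006931-116007130 and chr3:116008122-116008321, and another peak at chr3:116025788-116025987 lay inside the span of Extl2. Extl2, a glycosyltransferase gene, was not called (log2 −0.30, SE 0.16, edgeR adjusted p = 0.236). The peak inside Slc30a3 at chr5:31093155-31093354 was 14990 bp from the 5′ end of the gene span but 273 bp from an inner RefSeq start of the same gene. The other peaks counted for Slc30a3 were at the starts of Atraid and Cad, and Atraid rose (log2 0.81, SE 0.14, edgeR adjusted p = 0.00121) while Cad did not pass. The peaks counted for Slc30a2, and those of Slc30a4, Slc30a5 and Slc30a9 away from their own starts, were nearest to Pafah2, Bloc1s6, Cenph, Ccnb1 and Tmem33, and none of these 5 genes was called.

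**Figure D3:**
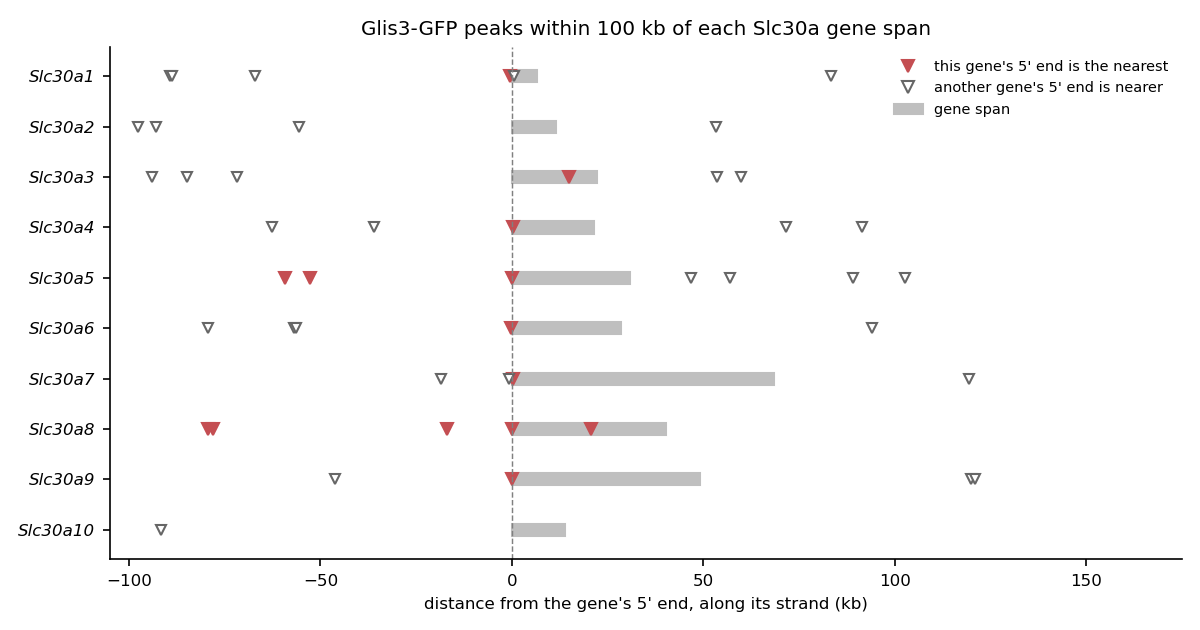
Glis3-GFP peaks within 100 kb of the span of each Slc30a member, as distance from the 5′ end of the gene along its strand in kb (x axis), with the span as a grey bar. Filled triangles are peaks for which the member's 5′ end is the nearest of any gene, and open triangles are nearer to another gene. The 7 tested members have a peak at 0, Slc30a8 has filled peaks 17017 bp before and 20671 bp after it as well, and Slc30a2 and Slc30a10 have none of their own.

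The other zinc handling genes, 23 in 3 lists, moved both ways. Of 19 that were tested 2 fell, 3 rose and 14 did not pass, and their median log2 fold change was 0.29, against 0.0065 over all tested genes. Over all tested genes 5.25% were called lower and 8.73% higher, so calls in both directions are not particular to these lists. Among the 14 Slc39a importers, 12 were tested, of which Slc39a11 rose, 0 fell and 11 did not pass. DESeq2 and limma-voom also called 1 importer higher and 0 lower. At an unadjusted p under 0.05 edgeR gave 2 lower and 4 higher, counts with no share over all tested genes to set beside them. Slc39a11 (chr11:113244855-113565815, minus strand), an importer of intracellular membranes, stood at 12.2, 13.7, 12.4 and 14.3 CPM in controls and at 35.3, 43.9 and 39.6 CPM in labelled knockouts. Each library labelled knockout was far above each control (log2 1.59, SE 0.14, edgeR adjusted p = 4.7e-06), a 3.02-fold rise. The Glis3 peak nearest to the 5′ end of its gene span was 4872 bp before that end. RefSeq also gives a start farther upstream, and this peak lay 79405 bp downstream of that start. The peak nearest to the outer start was not sought.

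Of the abundant importers, Slc39a7, which releases zinc from the endoplasmic reticulum, stood at 168.9 ± 16.8 and 185.6 ± 17.6 CPM and Slc39a9 at 57.2 ± 7.68 and 58.2 ± 0.53 CPM (SD, n = 4 controls and n = 3 labelled knockouts). Neither was called (log2 0.14 and 0.023, edgeR adjusted p = 0.524 and 0.931). Slc39a13, a vesicle and Golgi member, missed the threshold (log2 0.50, SE 0.17, edgeR adjusted p = 0.0694) but passed it with the replicate number as a block (log2 0.53, edgeR adjusted p = 0.047). It also passed when scaled by library size alone (log2 0.69, edgeR adjusted p = 0.0113). Slc39a10, named after its values were seen, was at 6.09 and 6.65 CPM in labelled knockouts 1 and 2 but at 12.5 CPM in labelled knockout 3, close to the 12.7 to 13.7 CPM of the controls. It did not pass (log2 −0.61, edgeR adjusted p = 0.114) but did without labelled knockout 3 (log2 −1.05, edgeR adjusted p = 0.00751).

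The metallothioneins split by gene. Mt1 and Mt2, the widely expressed members, fell, and Mt3, known from brain, rose, while Mt4 had no count in any library. Mt1 stood at 235.8, 158.2, 260.1 and 259.8 CPM in controls and at 113.1, 111.7 and 88.0 CPM in labelled knockouts. Every library labelled knockout was below every control, and control 2 was the lowest control (log2 −1.13, SE 0.18, edgeR adjusted p = 0.000641). Mt2 stood at 113.5, 76.3, 102.6 and 114.2 CPM in controls and at 62.3, 64.1 and 41.7 CPM in labelled knockouts. Every library labelled knockout was again below every control, with control 2 the lowest control and labelled knockout 3 the lowest library for both genes (log2 −0.86, SE 0.17, edgeR adjusted p = 0.00463).

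Mt3 rose from 1.58 ± 0.90 CPM (SD, n = 4) to 9.82 ± 5.04 CPM (SD, n = 3), with 5.57, 15.4 and 8.50 CPM in labelled knockouts 1 to 3 and at most 2.68 CPM in a control (log2 2.69, SE 0.47, edgeR adjusted p = 0.00175). Mtf1, the zinc sensor, stood at 24.6 ± 1.97 CPM (SD, n = 4) and 21.7 ± 1.60 CPM (SD, n = 3) and did not pass (log2 −0.18, 95% interval −0.48 to 0.12, edgeR adjusted p = 0.429). The promoter window of Mt2 held 4 matches to the metal response core and that of Mt3 held 1. A Glis3 peak midpoint lay 3 bp from the 5′ end of Mt1, 321 bp from that of Mt2 and 147 bp from that of Mtf1, while the nearest one to Mt3 was 19690 bp away. Of tested genes, 71.2% had a peak within 1 kb of the 5′ end.

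The zinc enzymes of the secretory pathway, a list of 4, are surface or secreted enzymes with zinc in the active site. Enpp1, an ectonucleotidase gene, rose from 1.55 ± 0.21 CPM (SD, n = 4) to 7.82 ± 2.35 CPM (SD, n = 3), with 7.87, 10.1 and 5.45 CPM in labelled knockouts 1 to 3 and at most 1.79 CPM in a control (log2 2.32, SE 0.32, edgeR adjusted p = 0.000226). Enpp1, which rose, also had a Glis3 peak near its start, with the midpoint 268 bp before the 5′ end. Alkaline phosphatase (Alpl, log2 −0.18, edgeR adjusted p = 0.811) and Enpp3 (log2 0.59, edgeR adjusted p = 0.385) did not pass. Nt5e had too few counts to be tested, and no tool called a member of this list lower, with 0 lower at an unadjusted p under 0.05.

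**Figure D4:**
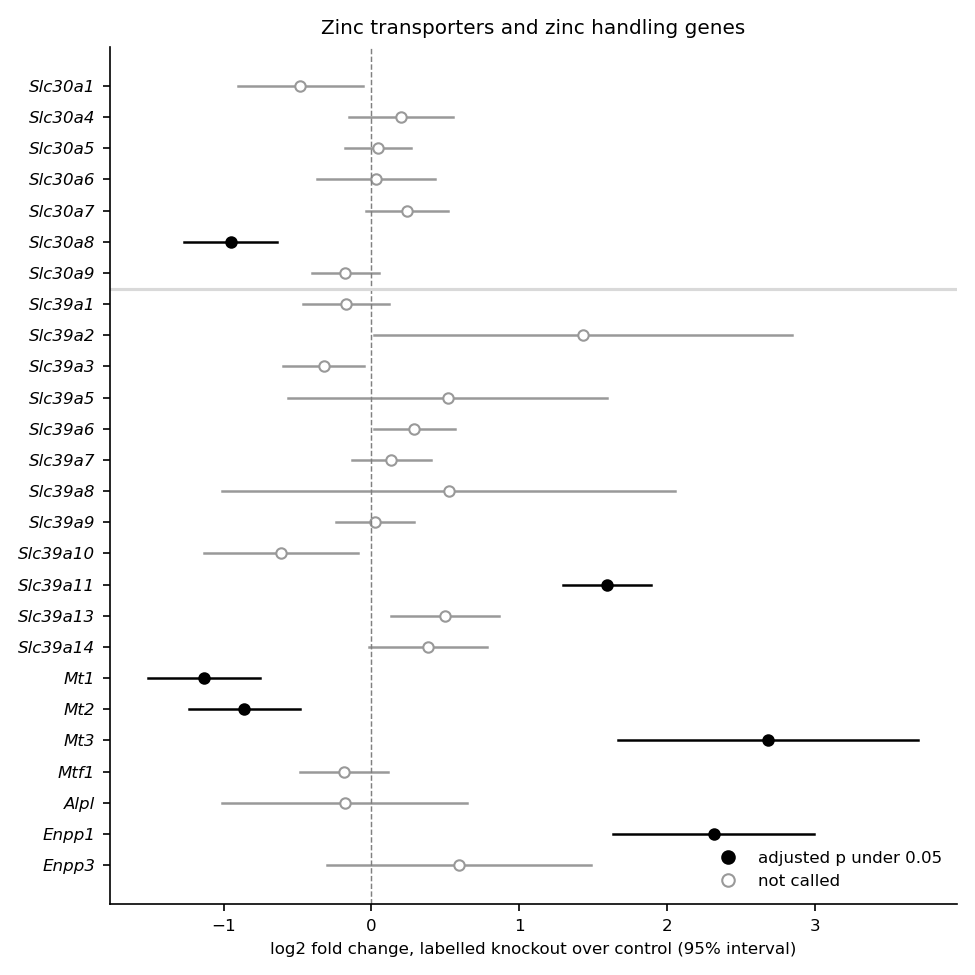
Log2 fold change of labelled knockout over control (x axis) with its 95% interval for the 7 tested Slc30a members (above the grey line) and the 19 tested zinc handling genes (below it). Filled points passed an edgeR adjusted p under 0.05: Slc30a8 (−0.95), Mt1 (−1.13) and Mt2 (−0.86) on the left and Slc39a11 (1.59), Mt3 (2.69) and Enpp1 (2.32) on the right.

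**Figure D5:**
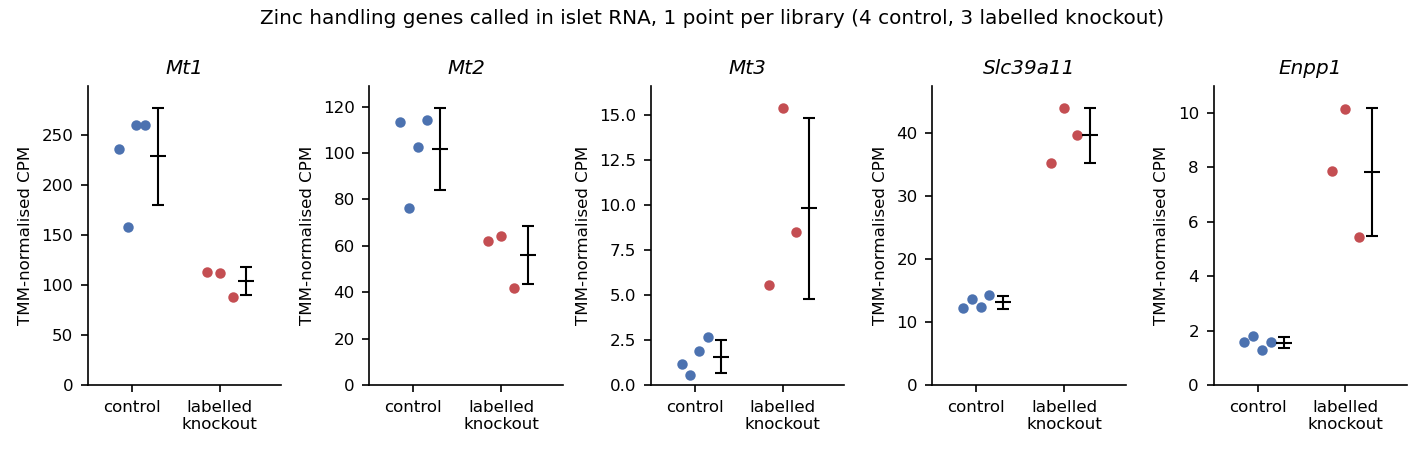
TMM-normalised CPM (y axes, from 0, each on its own scale) of the 5 called zinc handling genes outside the Slc30a family in each control (blue) and labelled knockout (red) library, with mean and SD as black bars. The groups are separate in all 5 panels, and the libraries labelled knockout are lower for Mt1 and Mt2 and higher for Mt3, Slc39a11 and Enpp1.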

How the data were processed

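The authors deposited raw counts of reads per gene, with symbols, Entrez identifiers and gene spans per the file headers. STAR 2.5, featureCounts 1.5.0-p1 and build mm10 are named per the submitters' processing notes; the annotation and strand option are not given in the sources used here. Peaks were 200 bp intervals without score. Bowtie 1.2 and HOMER 4.9.1 are listed, without settings, per the submitters' processing notes, and the input library was not analysed here.

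Genes were kept with filterByExpr, scaled with TMM factors and compared with edgeR 4.0.16 (quasi-likelihood test, robust), with Benjamini-Hochberg adjustment over all 14529 tested genes. The SE was obtained as the size of the log2 fold change over the square root of F, and the 95% interval follows from it. Of the table's 25611 rows, 988 repeated a symbol. No libraries were copies: within groups the chi-square over its degrees of freedom ran from 23.4 to 95.4. Each library is taken as 1 mouse, per the labels' design text.

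Same-numbered control and labelled knockout libraries deviated together weakly (r = 0.173, 0.117 and 0.117 over tested genes). The labels do not say what the number marks, and control 4 with labelled knockout 3 reached 0.157, above the 0.117 of control 3 with labelled knockout 3. These values do not establish pairs, and the main fit and the permutation tests used none. The blocked fit was an alternative. The others were RLE factors, library size alone, other filters, DESeq2 1.42.0, limma-voom (limma 3.58.1), a threshold of 0.01, leaving out each library or the 10 most abundant genes, and other peak windows. The members and lists were chosen with earlier results of these data known. Named genes were all members, every called gene of the 3 zinc lists with up to 3 abundant uncalled ones each, Glis3, Ins1, Ins2, the 5 genes most like Slc30a8, and genes nearest to a counted peak. Further genes were named after their values were seen. Count intervals and floors cover counting error only. Some markers of the alpha cell list are not reported here.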

Additional observations from a re-analysis of the deposited data

Results flagged for a closer look

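Single controls stood apart from the other 3 for 2 nearly absent members. Slc30a10 was at 0.365 CPM in control 3, from 6 counts, and at 0 in the other controls. Slc30a2 was at 0.0584 CPM in control 2, from 3 counts, and at 0 in the other controls. A gap of this relative size is flagged in about 1 of 20 groups by chance, and a group with 1 library above 0 always is. What sets these libraries apart was not tested.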

How the results depend on the processing

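The fall of Slc30a8 kept its direction and its call in all 16 alternatives (log2 −1.14 to −0.80, adjusted p from 2.5e-10 to 0.00432), as did Mt1, Mt2, Mt3, Slc39a11 and Enpp1. The count of members lower ran from 1 to 2 when single libraries were left out, with 2 without labelled knockout 2 (Slc30a1), and stayed at 1 in the other alternatives. No member was called higher in any alternative. Of 112 values of the 7 tested members, 108 kept direction and side of the threshold, and of 192 values of 12 other zinc genes 184 did. With 1 library left out, signs turned for Slc30a5 (log2 −0.00029 to 0.073), Slc30a6 (−0.14 to 0.14, negative without control 2 at −0.050 and without labelled knockout 2), Slc39a9 (−0.054 to 0.094) and Alpl (−0.46 to 0.047). With the replicate block Slc39a9 was at −0.016. The cause was not tested. Besides Slc39a13 (log2 0.53 with the block), the replicate block changed no other call among these genes. Scaling by library size alone moved the median log2 fold change of all genes to 0.18, and no member changed its call. Members with a peak numbered 8 within 10 kb of the span, 8 within 50 kb of the 5′ end, 8 by nearest span, 10 within 100 kb and 7 within 1 kb of the 5′ end, a window added after seeing the data. With 3 and 4 libraries, and few counts for 3 members, small changes were not detectable.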
